A study of Bos taurus with 37 samples.

Results

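The nuclear genes for the subunits of the oxidative phosphorylation (OXPHOS) complexes were followed in single bovine blastocysts. Members were taken by gene symbol from the deposited expression table: the NDUFA, NDUFB, NDUFC, NDUFS and NDUFV genes of complex I, SDHA to SDHD of complex II, the UQCR genes of complex III, the COX4 to COX8 genes of complex IV and the ATP5 genes of complex V. Assembly factors with NDUFAF or SDHAF symbols and the X-linked NDUFA1, NDUFB11 and COX7B were left out with the other rows that the symbols caught but the rule excludes (11 rows in all). ATP5S and ATP5SL, which are coupling or assembly factors rather than subunits, match the ATP5 symbols and are counted with complex V. This gave 81 members of the 22628 rows in the table: 37 of complex I, 4 of complex II, 8 of complex III, 15 of complex IV and 17 of complex V. All 81 symbols were found in RefSeq's gene table of a later bovine assembly, and 0 of them lay on the X chromosome there. The table held no row under the symbols of the mitochondrially encoded subunits, so every value below is for a nuclear gene.

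The study profiled blastocysts of 3 origins in each sex, with 1 library per embryo. IVF-BLs came from in vitro fertilisation (6 male and 6 female). SCNT-BLs came from somatic cell nuclear transfer, in which 1 donor fibroblast was fused to an enucleated oocyte that was then activated (6 male and 6 female). Sham NT-BLs were IVF zygotes with both pronuclei, taken 18 to 22 h after IVF, whose zona was torn and from which the polar body and some ooplasm were removed (6 male and 5 female). They were afterwards activated with ionomycin and DMAP, so they carried both parental genomes together with the handling. SCNT-BLs were collected 6 to 8 days after transfer, and embryos with 60 to 80 blastomeres were chosen. Day and blastomere number are not stated separately for IVF-BLs and sham NT-BLs, so a difference in stage cannot be told apart from origin. Adult ear skin fibroblasts of the male and of the female donor gave 1 library each. Male and female libraries were sequenced on separate flow cells. Sex and flow cell can therefore not be told apart, and comparisons of origin were made within a sex. Whether embryos of a group shared oocyte batches is not given, and p-values measure only the spread between these embryos.

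OXPHOS complexes sit in the inner mitochondrial membrane. Complexes I and II pass electrons from NADH and succinate to ubiquinone, complex III passes them on to cytochrome c, and complex IV gives them to oxygen. Complexes I, III and IV pump protons, and complex V (ATP synthase) uses the proton gradient to make ATP. Mammalian embryos shift from pyruvate-based respiration in early cleavage towards higher oxygen use at the blastocyst stage, when the trophectoderm pumps sodium to fill the cavity. Most subunits are nuclear genes, and some have tissue isoforms, such as the heart and muscle forms of complex IV subunits.

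Values are FPKM, fragments per kilobase of transcript, scaled to the mapped fragments of the library. Summed FPKM ran from 414105 to 601000.0 per library, and 9616 to 11382 genes stood above 1 FPKM. Relative depth read from the spacing of low values was, in males, 0.779 to 1 in IVF-BLs, 0.642 to 0.973 in SCNT-BLs and 0.536 to 0.801 in sham NT-BLs. In females it was 0.871 to 1.45, 0.369 to 1.18 and 0.429 to 0.824 in the same order, with female SCNT embryos 5 and 6 lowest of their group at 0.369 and 0.514. The 12 fibroblast markers summed to 2.75 to 40.1 FPKM in blastocysts and to 15599 and 11689 in the male and female donor libraries, while the 10 trophectoderm markers summed to 1717 to 7522 FPKM in blastocysts and 7.58 and 24.3 in the donors. Sums of the 7 inner cell mass markers found were 46.5 to 201 FPKM in blastocysts, and those of 6 primitive endoderm markers 1564 to 7473 FPKM. In the male and female donor libraries the inner cell mass markers summed to 0.617 and 1.80 FPKM. The primitive endoderm markers summed to 3877 and 584 FPKM there, with GATA4 and SOX17 at 0 in both. That sum in the male donor lay inside the blastocyst range, so it does not mark primitive endoderm alone. A whole embryo holds several cell types, so fewer cells of a type and less RNA per cell cannot be told apart. The Y-linked genes UTY, DDX3Y and EIF2S3Y were higher in every male library than in any female one, whereas XIST ranges of male SCNT-BLs and female IVF-BLs overlapped.

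OXPHOS transcripts were abundant and unevenly spread over the subunits. Over the 35 blastocysts, 21 members had a mean above 100 FPKM, 41 lay between 10 and 100, 11 between 1 and 10, and 8 below 1. The median member stood at 62.2 FPKM, against 4.45 FPKM for all genes with a mean above 0.1. The 5 most abundant members made up 49.3% of the summed member FPKM. In complex I the highest was NDUFA4, first described as a complex I subunit and later found with complex IV, with a mean of 951 FPKM. By its symbol NDUFA4 is counted in complex I throughout. SDHB, the iron-sulphur subunit of succinate dehydrogenase, led complex II at 114 FPKM, and UQCR10, a small subunit of the cytochrome bc1 complex, led complex III at 109 FPKM. COX8A, the ubiquitous form of the smallest complex IV subunit, averaged 1274 FPKM. ATP5C1, the central rotor shaft of the F1 part of ATP synthase, was the most abundant member of all at 1424 FPKM. Even in the same group the spread between embryos was wide: over members with a group mean above 10 FPKM, the median coefficient of variation was 27.7% for IVF-BLs, 25.5% for SCNT-BLs and 43.9% for sham NT-BLs among males, and 35.1%, 46.8% and 36.5% in the same order among females.

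**Figure D1:**
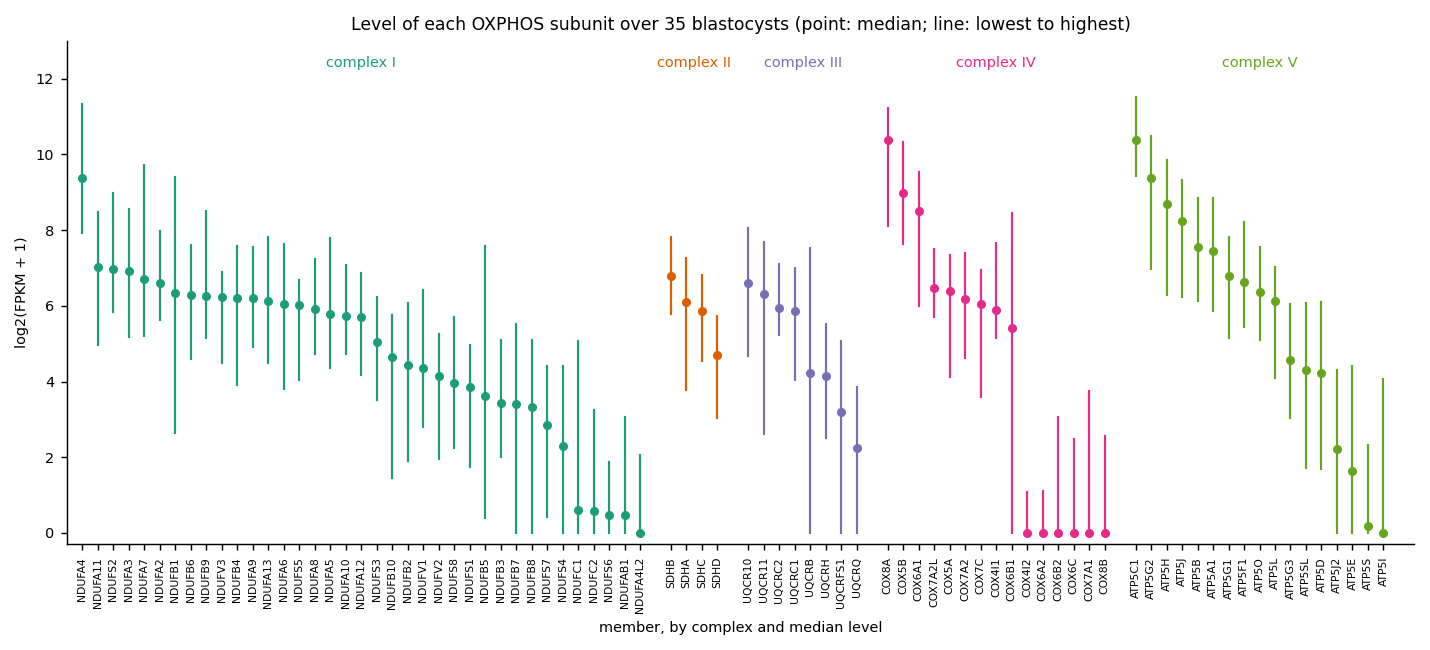
Level of each of the 81 OXPHOS subunits over 35 blastocysts on the log2(FPKM + 1) scale, grouped by complex and ordered by median; points are medians and lines run from the lowest to the highest embryo. NDUFA4, COX8A and ATP5C1 stand highest in complexes I, IV and V, and lines that reach 0 mark the 22 members listed at 0 in at least 1 embryo.

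Among the members, 59 were above 0 in all 35 blastocysts and 22 were listed at 0 in at least 1. COX6C, the ubiquitous subunit VIc, was listed at 0 in 34 of 35 blastocysts and in both donor libraries, and at 4.57 FPKM in female SCNT embryo 5. NDUFAB1, the mitochondrial acyl carrier protein, was at 0 in 14 embryos and never above 7.42 FPKM. COX6B1, the ubiquitous subunit VIb, was at 0 in 7 embryos and up to 350 FPKM in another (350.5 in male sham embryo 1). Since cells that respire use these genes, an exact 0 in this table need not mean that a transcript was absent, and the fits take such a 0 as a value. Differences given for NDUFC1 (at 0 in 15 embryos), ATP5J2 (at 0 in 4) and NDUFB7 and UQCRB (at 0 in 1 each) rest on the zeros as listed wherever their groups hold them.

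For 4 of 5 complex IV subunits with tissue forms, the ubiquitous form was listed higher in all 35 blastocysts. COX4I1 ran from 34.7 FPKM upward in every embryo while COX4I2, the lung form, was at 0 in 31 of 35 and at most 1.11 FPKM. COX6A1 averaged 352 FPKM, and the heart and muscle form COX6A2 was at 0 in 32 embryos. COX8B, the heart form, was also at 0 in 32. COX7A1, the heart and muscle form of subunit VIIa, was at 0 in 20 embryos with a maximum of 12.5 FPKM, whereas COX7A2L, which joins complexes III and IV into supercomplexes, averaged 93.2 FPKM. COX6B2, the testis form, was at 0 in 18 embryos and reached 7.32 FPKM. Its ubiquitous counterpart COX6B1 was higher in 28 embryos, lower in 3 where it was listed at 0, and both were listed at 0 in 4. Of the 3 genes for the same c-ring subunit of ATP synthase, ATP5G2 averaged 647 FPKM. In male IVF-BLs, ATP5G2 ran from 537 to 918 FPKM (median 702), ATP5G1 from 57.3 to 132 FPKM (median 101) and ATP5G3 from 29.9 to 65.6 FPKM (median 39.1), and ATP5G2 lay above both others in all 6 embryos. NDUFA4L2, a paralog of NDUFA4 known to be induced in hypoxia, was at 0 in 23 embryos and at most 3.14 FPKM.

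Summed per complex, the female sham NT-BLs stood apart from the other female groups in complex I. Their 37 complex I members summed to 5035 ± 901 FPKM (SD, n = 5; range 3635 to 5896), against 1924 ± 297 in female IVF-BLs (n = 6; 1468 to 2392), a ratio of 2.62 with no overlap. NDUFA4 made up 1749 of the 3111 FPKM between the means, and without it the ratio was 1.90. In the same female sham NT-BLs the inner cell mass markers summed to 70.0 to 94.5 FPKM (median 72.4) against 91.3 to 201 (median 128) in IVF-BLs, the primitive endoderm markers to 2883 to 7406 (median 5817) against 1972 to 4122 (median 3070.3), and the trophectoderm markers to 3228 to 5818 (median 3874) against 1717 to 6856 (median 6063). None of these markers was at 0 throughout but SOX17, in the sham NT-BLs, and the part of these cell types in the complex I sum was not tested. The primitive endoderm sum was also 3877 FPKM in the male donor fibroblasts, so it is not particular to that cell type. Male sham NT-BLs had a complex I sum of 3627 ± 781 FPKM against 2953 ± 531 in male IVF-BLs, a ratio of 1.23 with overlapping ranges, and without NDUFA4 the ratio was 0.997. On the median complex I member the male sham ratio turned to 0.728. Across the sexes, the complex I sums of female sham NT-BLs overlapped those of male sham NT-BLs (2360 to 4438 FPKM). They also overlapped male IVF-BLs, which reached 3813 FPKM. In complex IV the male SCNT-BLs summed to 2128 ± 296 FPKM (1823 to 2513) against 3003 ± 292 in male IVF-BLs (2539 to 3314), a ratio of 0.709 with no overlap. COX8A alone accounted for more than the whole difference, and the ratio without it was 1.06. Female SCNT-BLs had a similar complex IV ratio of 0.706, but with 5 embryos at 1092 to 2198 FPKM, below every female IVF embryo (2709.8 to 3464), and embryo 5 above them all at 4123. Complex V summed to 4863 ± 712 FPKM in male SCNT-BLs and 3751 ± 658 in male IVF-BLs, with overlap, and the ratio of 1.30 became 1.05 without ATP5C1 and 0.731 on the median member. In complexes II and III the ranges overlapped in all 4 comparisons with IVF-BLs. All 81 members together took 2.24% of the summed FPKM in female sham NT-BLs and 1.60% to 2.11% in the other groups. These sums are a description and were not tested.

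**Figure D2:**
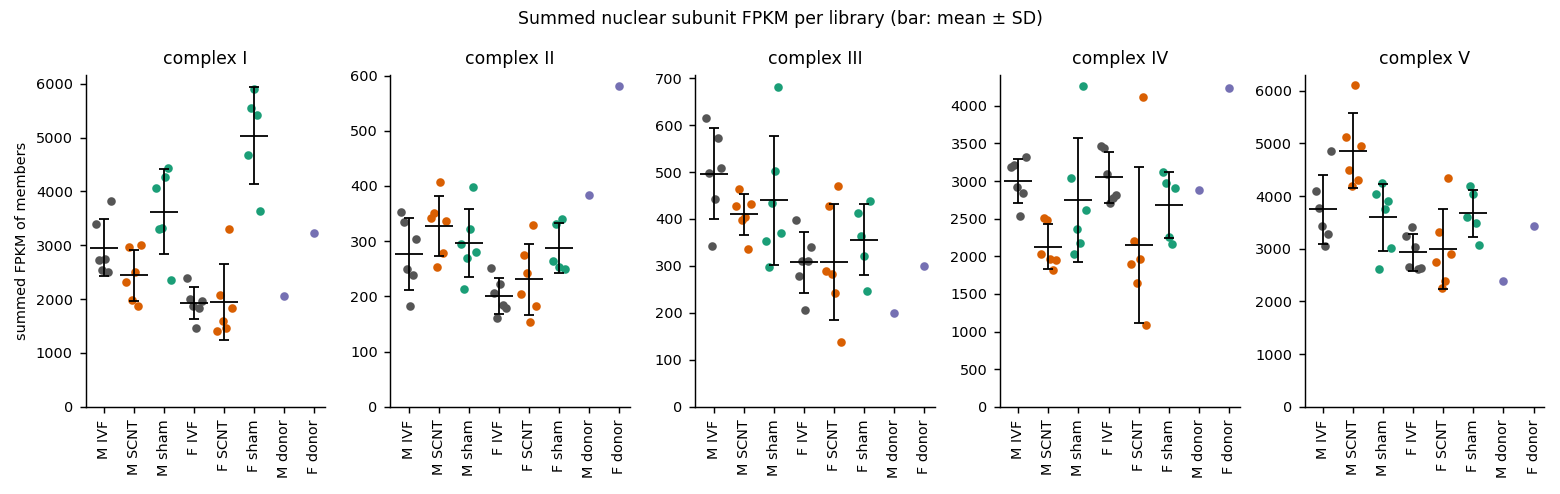
Summed FPKM of the members of each complex per library in the 6 blastocyst groups and the 2 donor fibroblast libraries; each point is 1 library and bars are mean ± SD. Complex I is higher in all 5 female sham embryos (3635 to 5896 FPKM) than in the other female embryos, with overlap with male sham and male IVF embryos. Complex IV is lower in male SCNT embryos (1823 to 2513 FPKM) than in male IVF embryos, and female SCNT embryo 5 is the high point of its group in complexes I and IV.

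Differences between origins were tested per gene with limma on log2(FPKM + 1), within a sex, with Benjamini-Hochberg adjustment over every gene whose mean was above 0.1 FPKM in the embryos compared. A log2 difference on this scale understates the change of genes near or below 1 FPKM. The question in the first comparison is how cloned embryos differ from fertilised ones. Both comparisons with IVF-BLs in a sex use the same IVF embryos, and SCNT-BLs and sham NT-BLs each enter a further comparison, so results of the same sex are not independent.

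In male SCNT-BLs, 16 of 79 members tested passed an adjusted p of 0.05, 6 higher and 10 lower than in male IVF-BLs. Over all genes 6.98% passed (3.34% higher, 3.64% lower). Members are more abundant than most genes, and abundant genes passed more often: among genes with a mean above 10 FPKM, 15.3% passed, as did 14 of 61 members (23.0%). The median difference of the members was -0.10 on the log2 scale, against -0.01 for all genes.

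The lower subunits of complex I in male SCNT-BLs were accessory ones apart from NDUFS7. NDUFA7 ran from 78.2 to 127 FPKM (median 102) in SCNT-BLs and from 202 to 354 FPKM (median 224) in IVF-BLs, so that every SCNT embryo lay below every IVF embryo (log2 difference -1.21 ± 0.17 (SE), limma adjusted p = 0.000578). NDUFB4 ran from 33.1 to 55.05 FPKM (median 40.7) against 66.1 to 141 FPKM (median 104) (log2 difference -1.24 ± 0.21 (SE), limma adjusted p = 0.0023). NDUFA8 and NDUFA9 were also lower without overlap (-1.04, adjusted p = 0.00379, and -0.94, adjusted p = 0.0071, limma). NDUFA11, a membrane subunit, was lower with overlap (-1.10, adjusted p = 0.0132, limma). NDUFS7, a core subunit that carries the last iron-sulphur cluster before ubiquinone, ran from 3.64 to 5.70 against 6.57 to 17.6 FPKM (-1.03, adjusted p = 0.0436, limma). No complex I member was called higher, and no member of complex II was called in either direction.

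In complex III the calls went both ways. UQCRC1 and UQCRC2, the core proteins, were higher in male SCNT-BLs: UQCRC2 ran from 71.8 to 137 FPKM (median 111) against 58.9 to 77.4 FPKM (median 67.6) (log2 difference 0.67 ± 0.16 (SE), limma adjusted p = 0.02). All but 1 SCNT embryo lay above the IVF range for UQCRC2, while for UQCRC1 the SCNT range was 61.6 to 109 and the IVF range 36.4 to 69.3 FPKM (0.79, adjusted p = 0.019, limma). UQCRB, which takes part in ubiquinone binding, was higher without overlap, 20.5 to 28.7 against 4.87 to 20.3 FPKM (1.12, adjusted p = 0.0387, limma). UQCR10 was lower, 35.2 to 92.2 against 88.1 to 267 FPKM, with 1 SCNT embryo inside the IVF range (log2 difference -1.65 ± 0.28 (SE), limma adjusted p = 0.00258).

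Complexes IV and V held the most abundant genes that differed. COX8A ran from 509.9 to 1067 FPKM (median 596) in the male clones, whereas male IVF-BLs ran from 1351 to 1873 FPKM (median 1645), with no overlap (log2 difference -1.28 ± 0.19 (SE), limma adjusted p = 0.00105). COX5B, a zinc-binding complex IV subunit, was higher by a factor of 1.48 (0.57, adjusted p = 0.0295, limma). ATP5D, the delta subunit of the F1 rotor, showed the largest member difference of this comparison. Its values were 4.39 to 14.5 FPKM (median 8.72) against 30.2 to 59.5 FPKM (median 47.7), so the highest SCNT embryo lay below the lowest IVF embryo (log2 difference -2.24 ± 0.27 (SE), limma adjusted p = 0.000209). ATP5C1, its neighbour in the rotor, went the other way, 1793 to 2914 FPKM (median 2218) against 879 to 1559 FPKM (median 1352), again without overlap (log2 difference 0.82 ± 0.19 (SE), limma adjusted p = 0.0163). ATP5O, part of the peripheral stalk, was lower (-1.11, adjusted p = 0.026, limma) and ATP5J2, a membrane subunit, higher at 4.83 to 18.9 against 0 to 5.73 FPKM (1.70, adjusted p = 0.034, limma). Of the 16 calls in this comparison, 11 held without each embryo in turn. The others were lost as follows: ATP5J2 without IVF embryo 5 or 6 or SCNT embryo 2, 3, 5 or 6 (adjusted p 0.0505 to 0.0771), ATP5O without IVF embryo 1 or 6 or SCNT embryo 3, 4 or 5 (adjusted p 0.0508 to 0.0562), COX5B without IVF embryo 2, 3, 4 or 5 or SCNT embryo 1, 4 or 6 (adjusted p 0.0522 to 0.0626), NDUFS7 without IVF embryo 1, 2, 3 or 6 or SCNT embryo 1, 2, 3, 4, 5 or 6 (adjusted p 0.0545 to 0.0989) and UQCRB without IVF embryo 2, 3 or 6 or SCNT embryo 1, 2, 3, 4, 5 or 6 (adjusted p 0.0517 to 0.08). With the sham NT-BLs in the same fit 9 members passed.

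In female SCNT-BLs, 0 of 79 members passed against female IVF-BLs, where 0.321% of all genes did. At an unadjusted p of 0.05, limma gave 6 members higher and 7 lower, where 4.92% of all genes were higher and 5.98% lower. Leaving out each embryo, or the shallow SCNT embryos 5 and 6 together, also gave 0. The median difference was -0.19 for members and -0.04 for all genes. COX8A ran from 542 to 1994 FPKM (median 874) against 1428 to 1904 FPKM (median 1846), a difference of -0.93 (95% confidence interval -1.57 to -0.30) and an adjusted p of 0.23 (limma). Of its 6 SCNT embryos 5 lay below the IVF range and embryo 5 above it, at 1994 FPKM. The member differences of largest size were NDUFC1 at -1.58 (95% confidence interval -2.79 to -0.36), NDUFB1 at 1.19 (95% confidence interval 0.04 to 2.34) and NDUFS7 at -1.11 (95% confidence interval -2.01 to -0.21). NDUFC1, which joins the subcomplexes of the membrane arm, was at 0 in 5 of 6 SCNT embryos and at 0.509 FPKM in the other, and at 0 in 2 of 6 IVF embryos.

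ATP5D in females differed from the male pattern. It ran from 12.4 to 68.2 FPKM (median 24.3) in female SCNT-BLs and from 10.8 to 42.9 FPKM (median 14.5) in female IVF-BLs, with overlap. The difference of the SCNT effects, female minus male, was 2.80 on the log2 scale (SE 0.48, limma interaction adjusted p = 0.00393). For NDUFA7 it was 1.40 (limma interaction adjusted p = 0.0363), with female values of 38.6 to 112 in SCNT-BLs and 36.02 to 73.8 FPKM in IVF-BLs. Thus 2 of 78 members passed the test of the difference, against 1.91% of all genes (1.06% higher, 0.849% lower) and 4.35% of genes above 10 FPKM. Among IVF-BLs, NDUFA7 lay at 202 FPKM or more in every male IVF embryo and at 73.8 or less in every female one. A flow cell effect common to both origins of a sex cancels in this test, and 1 that is not common does not. The call for NDUFA7 was lost as follows: NDUFA7 without male IVF embryo 1 or 6 or male SCNT embryo 1, 5 or 6 or female IVF embryo 2, 4 or 5 or female SCNT embryo 2 or 5 (adjusted p 0.0505 to 0.0668). NDUFB5 and UQCRB had differences of -2.19 (95% confidence interval -3.99 to -0.39) and -1.75 (95% confidence interval -3.52 to 0.01), with adjusted p-values of 0.218 and 0.332.

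**Figure D3:**
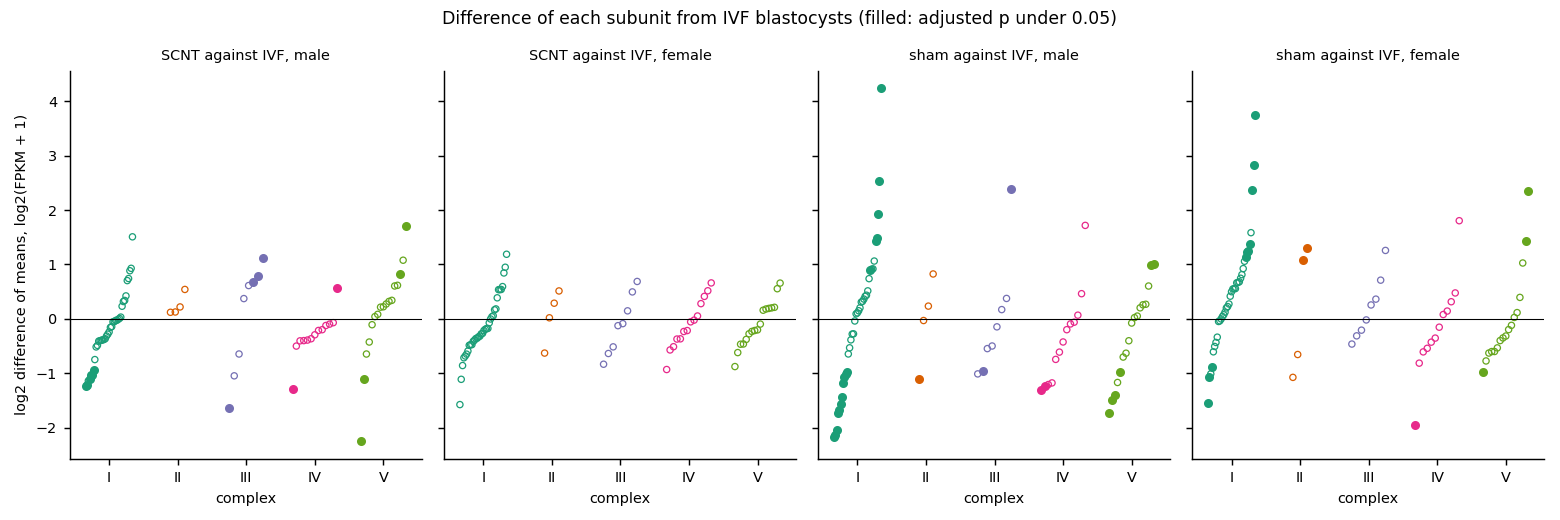
Log2 difference of each OXPHOS subunit from IVF blastocysts of the same sex on the log2(FPKM + 1) scale, by complex, for SCNT and sham embryos; each point is 1 gene and filled points passed an adjusted p of 0.05 (limma). Calls number 16, 0, 28 and 16 from left to right, and both directions occur in each panel that has calls.

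The sham NT-BLs ask what the handling and activation do to an embryo with both parental genomes. In males, 28 of 79 members passed against IVF-BLs, 9 higher and 19 lower, where 12.1% of all genes passed (6.13% higher, 5.96% lower). Above 10 FPKM, 41.9% of members (26 of 62) and 25.2% of all genes passed. The median member difference was -0.08 and that of all genes -0.02.

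Of the 28 calls in males, 17 lay in complex I, 11 lower and 6 higher. Complex I supplied 37 of the 79 members tested. NDUFS8, a core subunit with iron-sulphur clusters of the electron path, ran from 3.72 to 10.98 FPKM (median 5.94) in sham NT-BLs and from 14.6 to 51.3 FPKM (median 25.3) in IVF-BLs, with no overlap (log2 difference -2.05 ± 0.34 (SE), limma adjusted p = 0.000953). NDUFS7 was lower too, also without overlap (-1.68, adjusted p = 0.0155, limma). NDUFA8 ran from 25.3 to 68.6 FPKM (median 43.2) against 83.2 to 150.4 FPKM (median 121) (log2 difference -1.43 ± 0.24 (SE), limma adjusted p = 0.00109), and NDUFA11 from 35.2 to 139 against 148 to 356 FPKM (-1.57, adjusted p = 0.00264, limma), both without overlap. NDUFB6, NDUFB7 and NDUFB10 of the membrane arm were lower with overlap, by -1.73, -2.17 and -2.13 on the log2 scale. NDUFB10 ran from 1.73 to 28.1 against 27.8 to 52.8 FPKM, and only sham embryo 6 lay inside the IVF range.

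Among the higher complex I members in male sham NT-BLs, NDUFB5 and NDUFB9 did not overlap the IVF-BLs. NDUFB5, a membrane-arm subunit, ran from 12.99 to 189.8 FPKM (median 103) against 0.367 to 9.42 FPKM (median 2.93) (log2 difference 4.24 ± 0.63 (SE), limma adjusted p = 0.000416). NDUFB9 ran from 117 to 363 FPKM (median 198) against 50.3 to 99.8 FPKM (median 72.3) (log2 difference 1.43 ± 0.25 (SE), limma adjusted p = 0.00142). NDUFB1 ran from 70.2 to 307 FPKM (median 179) against 19.5 to 102 FPKM (median 48.1) (log2 difference 1.92 ± 0.45 (SE), limma adjusted p = 0.0092). For NDUFB1 only sham embryo 3 lay inside the IVF range, at 70.2 FPKM. NDUFV1, the core subunit that binds NADH, ran from 25.7 to 84.5 against 5.92 to 33.7 FPKM (1.49, adjusted p = 0.0224, limma). NDUFA4 ran from 843 to 1909 FPKM (median 1465) against 501 to 1047 FPKM (median 749), and only sham embryo 6 lay inside the IVF range (log2 difference 0.91 ± 0.26 (SE), limma adjusted p = 0.0285). NDUFC1 was listed at 7.22, 24.1, 7.21, 32.4, 23.95 and 0 FPKM in sham embryos and 0, 0, 1.04, 1.24, 0.616 and 3.87 FPKM in IVF embryos, with zeros in both groups (2.54, adjusted p = 0.0285, limma).

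In the remaining complexes of male sham NT-BLs, SDHC, a membrane anchor of complex II, was lower without overlap, 22.1 to 45.97 against 51.9 to 99.7 FPKM (-1.11, adjusted p = 0.00386, limma). UQCRB was higher, 17.8 to 182 FPKM (median 57.5) against 4.87 to 20.3 FPKM (median 12.2) (log2 difference 2.38 ± 0.48 (SE), limma adjusted p = 0.00366). COX5A, a subunit on the matrix side of complex IV, ran from 18.5 to 105 FPKM (median 35.6) against 63.7 to 125 FPKM (median 92.4), and sham embryo 5 alone reached the IVF range (log2 difference -1.30 ± 0.35 (SE), limma adjusted p = 0.0229). In complex V, 2 of the 3 c-ring genes, ATP5G2 and ATP5G3, were lower without overlap, and ATP5G1 was not called (44.3 to 148 against 57.3 to 132 FPKM). ATP5G2 ran from 125 to 513 FPKM (median 261) against 537 to 918 FPKM (median 702) (log2 difference -1.49 ± 0.29 (SE), limma adjusted p = 0.003), and ATP5G3 from 7.77 to 18.01 against 29.9 to 65.6 FPKM (-1.73, adjusted p = 0.000453, limma). ATP5A1 and ATP5B, the alpha and beta subunits that form the catalytic head, were higher (1.001, adjusted p = 0.0334, and 0.99, adjusted p = 0.00486, limma), with ATP5B at 266 to 461 against 146 to 271 FPKM. ATP5D was lower (-1.39, adjusted p = 0.0163, limma), and sham embryo 2 lay inside the IVF range at 44.1 FPKM. Of the 28 calls, 20 held without each embryo in turn. Among the members given here, calls were lost as follows: ATP5A1 without IVF embryo 3, 4 or 5 or sham embryo 2, 4, 5 or 6 (adjusted p 0.0518 to 0.0772), COX5A without IVF embryo 2 or 6 (adjusted p 0.0527 to 0.054), NDUFA4 without IVF embryo 2, 3 or 5 or sham embryo 4 or 5 (adjusted p 0.062 to 0.0729), NDUFC1 without IVF embryo 1, 2 or 5 or sham embryo 2, 4 or 5 (adjusted p 0.0522 to 0.0727) and NDUFV1 without IVF embryo 2 or 3 or sham embryo 4 or 5 (adjusted p 0.05 to 0.0551). With no filter on low values 17 members passed.

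In female sham NT-BLs, 16 of 78 members passed against female IVF-BLs, 11 higher and 5 lower, where 13.5% of all genes passed (7.03% higher, 6.47% lower). Above 10 FPKM the shares were 25.8% of members (16 of 62) and 26.4% of all genes, a difference of less than 1 percentage point. The median difference was 0.10 for members and -0.09 for all genes. Summed FPKM was higher in sham libraries, and scaling every library to the same sum moved these medians to -0.06 and -0.29 and the calls to 10 higher and 9 lower.

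Of the 11 higher members in females, 7 were counted in complex I by symbol, NDUFA4 among them. Complex I supplied 37 of the 78 members tested. NDUFA4 was measured at 2559.8, 2227, 2365, 2496 and 1169.5 FPKM in the 5 sham embryos and ran from 288 to 588 FPKM (median 381) in IVF-BLs. Every sham embryo lay above every IVF embryo, and the ratio of means was 5.22 (log2 difference 2.37 ± 0.28 (SE), limma adjusted p = 8.26e-05). NDUFB1 was at 173, 408, 673, 402 and 339 FPKM, against 5.18 to 57.3 FPKM (median 32.8), with no overlap (log2 difference 3.74 ± 0.50 (SE), limma adjusted p = 0.000206). NDUFA7 was at 72.5, 779.8, 845, 696 and 239 FPKM, against 36.02 to 73.8 FPKM (median 57.1) (log2 difference 2.83 ± 0.52 (SE), limma adjusted p = 0.00219). Sham embryo 1 lay inside the IVF range for NDUFA7, and the other 4 were far above it. NDUFA3 was at 211, 227, 120.0, 191 and 132 FPKM, against 35.2 to 116 FPKM (median 69.2), with no overlap (log2 difference 1.23 ± 0.30 (SE), limma adjusted p = 0.0121). NDUFB4, NDUFB9 and NDUFA6 were higher with overlap, by 1.25, 1.37 and 1.13 on the log2 scale.

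Both catalytic subunits of complex II were higher in female sham NT-BLs. SDHA, the flavoprotein, was at 80.3, 60.02, 56.5, 76.8 and 97.03 FPKM, against 16.2 to 58.4 FPKM (median 27.6) (log2 difference 1.31 ± 0.29 (SE), limma adjusted p = 0.00763), and SDHB at 102, 225, 146, 206 and 93.2 FPKM, against 53.8 to 97.7 FPKM (median 64.7) (log2 difference 1.08 ± 0.27 (SE), limma adjusted p = 0.0141). Ranges overlapped by 1 sham embryo for each. In complex V, the peripheral stalk genes ATP5H and ATP5J were higher without overlap. ATP5H was at 429, 736, 921, 519 and 489.6 FPKM, against 97.9 to 186 FPKM (median 104) (log2 difference 2.35 ± 0.25 (SE), limma adjusted p = 4.3e-05), and ATP5J at 509, 488, 369, 287 and 349 FPKM, against 78.1 to 249 FPKM (median 156) (log2 difference 1.43 ± 0.29 (SE), limma adjusted p = 0.00443). The 5 lower members were COX5A, NDUFS5, NDUFS7, NDUFS8 and ATP5G2. COX5A was at 32.1, 24.6, 16.4, 19.9 and 75.6 FPKM, against 89.3 to 163 FPKM (median 108), with no overlap (log2 difference -1.96 ± 0.33 (SE), limma adjusted p = 0.00106). NDUFS8 was at 6.28, 7.47, 12.1, 8.02 and 9.45 FPKM, against 13.1 to 22.6 FPKM (median 15.00), also without overlap (log2 difference -0.89 ± 0.25 (SE), limma adjusted p = 0.0294). Of the 16 calls, 12 held without each embryo in turn, and the others were lost as follows: ATP5G2 without IVF embryo 3 or sham embryo 3 (adjusted p 0.0516 to 0.0628), NDUFA6 without IVF embryo 1, 2, 3 or 4 or sham embryo 2, 3, 4 or 5 (adjusted p 0.0517 to 0.114), NDUFS7 without IVF embryo 1, 3, 5 or 6 or sham embryo 1, 2, 4 or 5 (adjusted p 0.0616 to 0.0883) and NDUFS8 without IVF embryo 5 or 6 or sham embryo 1, 2 or 4 (adjusted p 0.06 to 0.0655). Relative depth was lower in every female sham library than in every female IVF library, and its part in these differences was not tested.

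**Figure D4:**
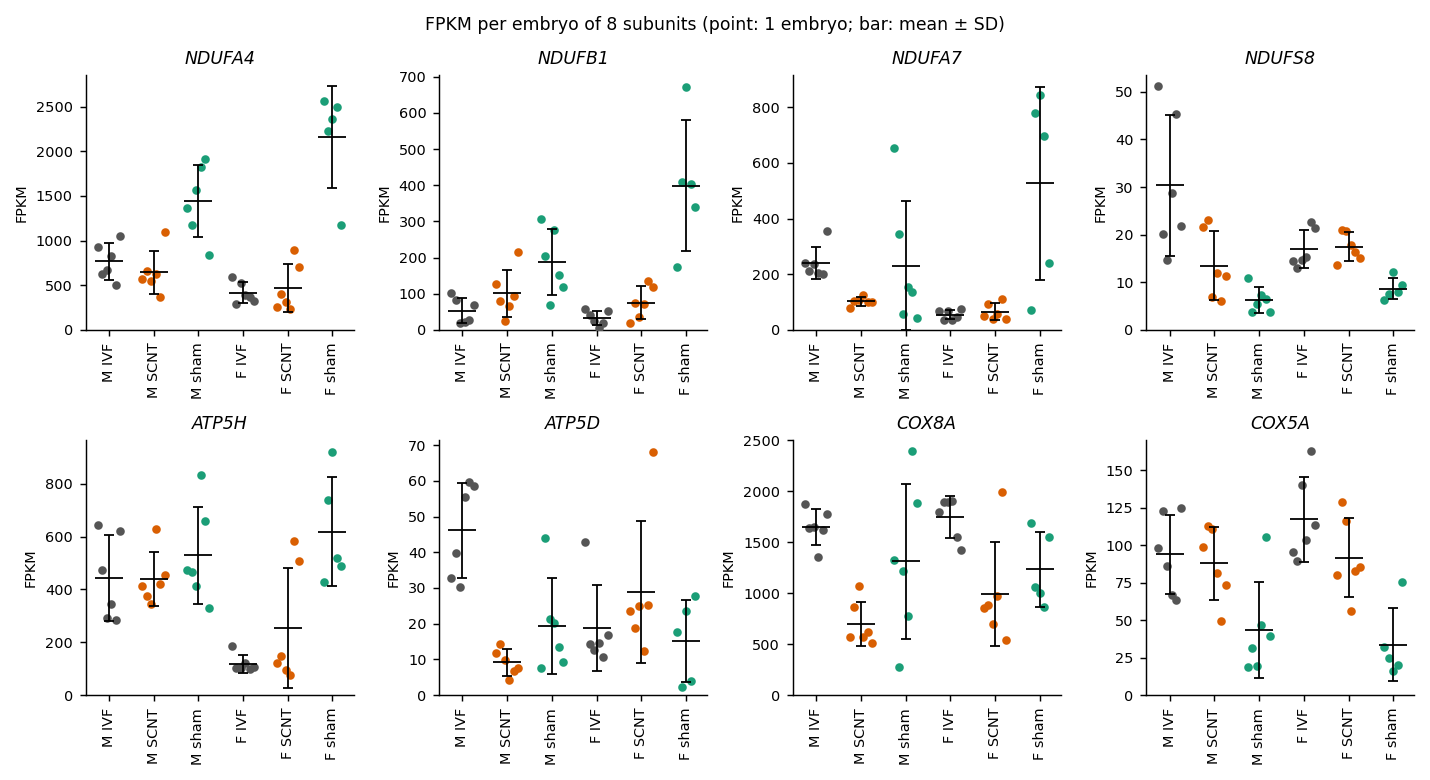
FPKM per embryo of 8 subunits in the 6 blastocyst groups (M male, F female); each point is 1 embryo and bars are mean ± SD. NDUFA4, NDUFB1, NDUFA7 and ATP5H are higher in female sham than in female IVF embryos, apart from 1 sham embryo for NDUFA7. For ATP5H the female sham embryos overlap every male group. NDUFS8 and COX5A are lower in sham than in IVF embryos of the same sex, apart from male sham embryo 5 for COX5A. ATP5D and COX8A are lower in male SCNT than in male IVF embryos. ATP5D is also below the male IVF range in male sham embryos apart from embryo 2. COX8A is below the female IVF range in female SCNT embryos apart from embryo 5.

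Male and female sham comparisons share no embryo. In both sexes 8 members were called in the same direction, which is 28.6% of the male calls and 50.0% of the female ones. Over all genes, 5.62% of those tested in both sexes were called in the same direction, which is 44.1% of the male calls and 38.6% of the female ones. NDUFA4, NDUFB1 and NDUFB9 were higher, and COX5A, NDUFS5, NDUFS7, NDUFS8 and ATP5G2 were lower. NDUFS5, an accessory subunit of complex I, ran from 24.2 to 41.8 in male sham NT-BLs against 51.1 to 101 FPKM in IVF-BLs (-1.17, adjusted p = 0.00143, limma), and from 15.4 to 53.4 against 51.6 to 88.4 FPKM in females (-1.06, adjusted p = 0.0205, limma). NDUFA3 was called lower in males (-1.06, adjusted p = 0.0264, limma) and higher in females. The male call was lost as follows: NDUFA3 without IVF embryo 1, 2 or 6 or sham embryo 6 (adjusted p 0.0552 to 0.0648). The sham effect on NDUFA3 differed between the sexes by 2.29 on the log2 scale, female minus male (limma interaction adjusted p = 0.00565).

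The sham effect differed between the sexes for 5 of 78 members, all more positive in females, where 1.22% of all genes and 2.45% of genes above 10 FPKM passed (0.833% of all genes in that direction and 0.384% in the other). Beside NDUFA3 these were NDUFA7 at 3.48 (limma interaction adjusted p = 0.0241), ATP5H at 2.08 (adjusted p = 0.00369), NDUFA8 at 1.98 (adjusted p = 0.00464) and NDUFA4 at 1.47 (adjusted p = 0.0429). The median of all members was 0.42, and 53 of 78 members had a positive difference. The median of all genes was -0.06, so most genes had a negative one. Members were measured in the same embryos and are not independent of each other. In IVF-BLs the mean of each of these 5 genes was lower in females: ATP5H ran from 97.9 to 186 FPKM in female and from 286 to 644 in male IVF-BLs, while sham NT-BLs of both sexes overlapped at 429 to 921 and 331 to 831. For NDUFA8 the IVF ranges overlapped (32.1 to 91.3 FPKM in females and 83.2 to 150.4 in males), and sham values were 61.4 to 113 in females and 25.3 to 68.6 in males. Differences between male and female IVF-BLs cannot be told apart from the flow cell. Calls were lost as follows: NDUFA4 without male IVF embryo 1, 2, 3, 4 or 6 or male sham embryo 2 or 6 or female IVF embryo 2, 4, 5 or 6 or female sham embryo 1, 2, 3 or 4 (adjusted p 0.055 to 0.0951) and NDUFA7 without female sham embryo 2, 3 or 4 (adjusted p 0.0597 to 0.0617). NDUFC1 and NDUFB5 had large differences of -2.98 (95% confidence interval -5.43 to -0.52) and -2.66 (95% confidence interval -4.76 to -0.55) that did not pass (adjusted p = 0.283 and 0.254).

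The comparison of SCNT-BLs with sham NT-BLs sets cloned embryos against embryos that had similar handling but kept their parental genomes. In males 19 of 77 members passed, 12 higher and 7 lower in SCNT-BLs, where 11.8% of all genes passed (5.67% higher, 6.13% lower). Above 10 FPKM the shares were 27.1% of members and 24.4% of all genes. The median was 0.14 for members and 0.01 for all genes. NDUFB6 was higher without overlap, 123 to 194 FPKM (median 173) in SCNT-BLs against 23.1 to 82.4 FPKM (median 30.1) (log2 difference 2.15 ± 0.29 (SE), limma adjusted p = 0.000192). ATP5G2 was higher without overlap as well, 643 to 1215 FPKM (median 862) against 125 to 513 FPKM (median 261) (log2 difference 1.76 ± 0.30 (SE), limma adjusted p = 0.00121). NDUFS5 and SDHC were higher without overlap (1.21, adjusted p = 0.00142, and 1.24, adjusted p = 0.00125, limma), as was ATP5C1 (0.89, adjusted p = 0.0331, limma). ATP5SL and ATP5G3 were also called higher. NDUFV1 was lower without overlap, 6.42 to 18.8 FPKM (median 14.1) against 25.7 to 84.5 FPKM (median 47.5) (log2 difference -1.80 ± 0.32 (SE), limma adjusted p = 0.00181), and so were NDUFB9 and NDUFA9 (-1.79, adjusted p = 0.000473, and -1.30, adjusted p = 0.00262, limma). NDUFB5, NDUFC1, NDUFA4 and ATP5B were lower with overlap. ATP5I, a membrane subunit, was listed at 0 in all 6 male sham embryos and at 0 to 9.73 FPKM in SCNT-BLs, and no fold is given. Of the 19 calls, 14 held without each embryo in turn, and those lost were ATP5C1 without SCNT embryo 1, 3, 4, 5 or 6 or sham embryo 2, 4 or 6 (adjusted p 0.05 to 0.0784), ATP5J2 without SCNT embryo 2, 3, 4, 5 or 6 or sham embryo 1, 2, 3, 4 or 6 (adjusted p 0.0559 to 0.1), COX5A without SCNT embryo 1, 2, 3, 4 or 6 or sham embryo 1, 2, 3 or 6 (adjusted p 0.0546 to 0.0822), NDUFA12 without SCNT embryo 2, 3, 4 or 5 or sham embryo 2, 4 or 6 (adjusted p 0.0517 to 0.0788) and NDUFB10 without SCNT embryo 1, 2, 4, 5 or 6 or sham embryo 1, 2, 3 or 4 (adjusted p 0.0538 to 0.0762).

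In females 15 of 80 members passed between SCNT-BLs and sham NT-BLs, 2 higher and 13 lower in SCNT-BLs, where 11.3% of all genes passed (5.21% higher, 6.07% lower). Above 10 FPKM the shares were 24.2% of members and 22.9% of all genes, and for the lower direction 13 of 62 members against 13.2% of all genes. With every library scaled to the same summed FPKM, 4 were higher and 9 lower. Of the 13 lower members 10 were counted in complex I by symbol, NDUFA4 among them. Complex I supplied 37 of the 80 members tested. ATP5H and ATP5J belonged to the stalk of complex V, and UQCR10 to complex III. NDUFA4 ran from 239.5 to 899 FPKM (median 358) in SCNT-BLs, below each of the sham values given above (log2 difference -2.34 ± 0.37 (SE), limma adjusted p = 0.00127). NDUFB1 ran from 17.8 to 134 FPKM (median 72.7), also below every sham embryo (log2 difference -2.55 ± 0.46 (SE), limma adjusted p = 0.0026). ATP5J and NDUFB9 were lower without overlap too (-1.80, adjusted p = 0.00221, and -1.64, adjusted p = 0.00227, limma). NDUFB4 and NDUFA6 were also called lower, by -1.64 and -1.62 on the log2 scale. NDUFA7 ran from 38.6 to 112 FPKM (median 53.9) (log2 difference -2.65 ± 0.54 (SE), limma adjusted p = 0.0056) and overlapped sham embryo 1. SCNT embryos 5 and 6, the shallowest of the group, lay nearest to the sham embryos for some genes, and the part of depth in this was not tested. ATP5H was at 582 and 507 FPKM in them and at 77.2 to 147 in the other 4, and NDUFA4 was at 899 and 705 and at 239.5 to 401. Without these 2 embryos 16 members passed. COX5A and NDUFS8 were higher in SCNT-BLs (1.59, adjusted p = 0.00744, and 0.95, adjusted p = 0.0246, limma), NDUFS8 without overlap at 13.6 to 21.01 FPKM. Of the 15 calls, 8 held without each embryo in turn, and those lost were ATP5H without SCNT embryo 1, 2, 3 or 4 or sham embryo 2, 3, 4 or 5 (adjusted p 0.0518 to 0.0928), NDUFA3 without SCNT embryo 3 or 4 or sham embryo 1, 2 or 4 (adjusted p 0.0501 to 0.0635), NDUFA8 without SCNT embryo 1, 2, 3 or 4 or sham embryo 2, 3 or 4 (adjusted p 0.0633 to 0.111), NDUFA10 without SCNT embryo 1 or 4 or sham embryo 2, 3, 4 or 5 (adjusted p 0.0525 to 0.0837), NDUFB5 without SCNT embryo 3, 5 or 6 or sham embryo 1, 3 or 5 (adjusted p 0.0625 to 0.0958), NDUFS8 without SCNT embryo 2 or 3 or sham embryo 1, 2 or 4 (adjusted p 0.0519 to 0.0612) and UQCR10 without SCNT embryo 1, 2, 3, 4 or 6 or sham embryo 1, 2, 3 or 5 (adjusted p 0.0587 to 0.113).

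The donor fibroblasts show what the transferred nuclei expressed before transfer. There is 1 library per sex, so no test was made, and a member was counted where it differed from the mean of the SCNT-BLs of its sex by more than 2-fold (1 on the log2 scale). In males 16 of 77 members were higher and 23 lower in the donor, where 47.7% of all genes lay past 2-fold (29.2% higher, 18.5% lower). In females 34 of 79 were higher and 12 lower, where 50.4% of all genes did (31.1% higher, 19.3% lower). The female donor library held more OXPHOS transcripts than the male one, 2.03% against 1.41% of summed FPKM. In both sexes 16 members were higher and 11 lower in the donor, of 76 that passed the filter in both, where 22.7% of all genes were higher in both and 13.2% lower, shares near those of the members (21.1% and 14.5%).

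Of the tissue forms of complex IV subunits, COX7A1 was past 2-fold higher in both donors, while COX4I2, COX6B2 and COX8B were listed at 0 in both and COX6A2 in the male one. NDUFA4L2 was at 24.9 and 45.8 FPKM in the male and female donors and at most 0.539 FPKM in any SCNT-BL. COX7A1 was at 9.999 and 26.5 FPKM, against 0 to 6.86 and 0 to 12.5 in male and female SCNT-BLs. COX7A2, the ubiquitous partner of COX7A1, was lower in the donors, at 4.12 and 12.4 FPKM against 59.6 to 115 and 42.4 to 90.7. COX8A was at 2027 FPKM in the male donor, above all 6 male SCNT-BLs. NDUFB9 was at 377 and 701 FPKM against 34.7 to 75.9 and 38.00 to 118, and NDUFB5 at 64.1 and 62.8 against 5.96 to 13.3 and 0.307 to 14.2. UQCR10 went the other way, at 7.55 and 10.05 FPKM against 35.2 to 92.2 and 49.2 to 115, and so did NDUFB6 at 16.4 and 19.7 against 123 to 194 and 26.4 to 85.2. ATP5G2 was at 122 and 278 FPKM, below every SCNT-BL, and ATP5C1 at 407 and 303 FPKM, also below every SCNT-BL. COX6B1, at 105 and 257 FPKM in the donors, lay above all SCNT-BLs, some of which were listed at 0. NDUFC2 was at 9.27 and 27.7 FPKM against 0.242 to 0.722 and 0 to 8.42. COX7A2L was at 19.7 and 26.3 FPKM, below every SCNT-BL. NDUFA3 (17.5 FPKM) and ATP5SL (2.70 FPKM) were below every SCNT-BL in males. In females these 2 lay inside the SCNT range, at 69.7 and 6.67 FPKM.

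**Figure D5:**
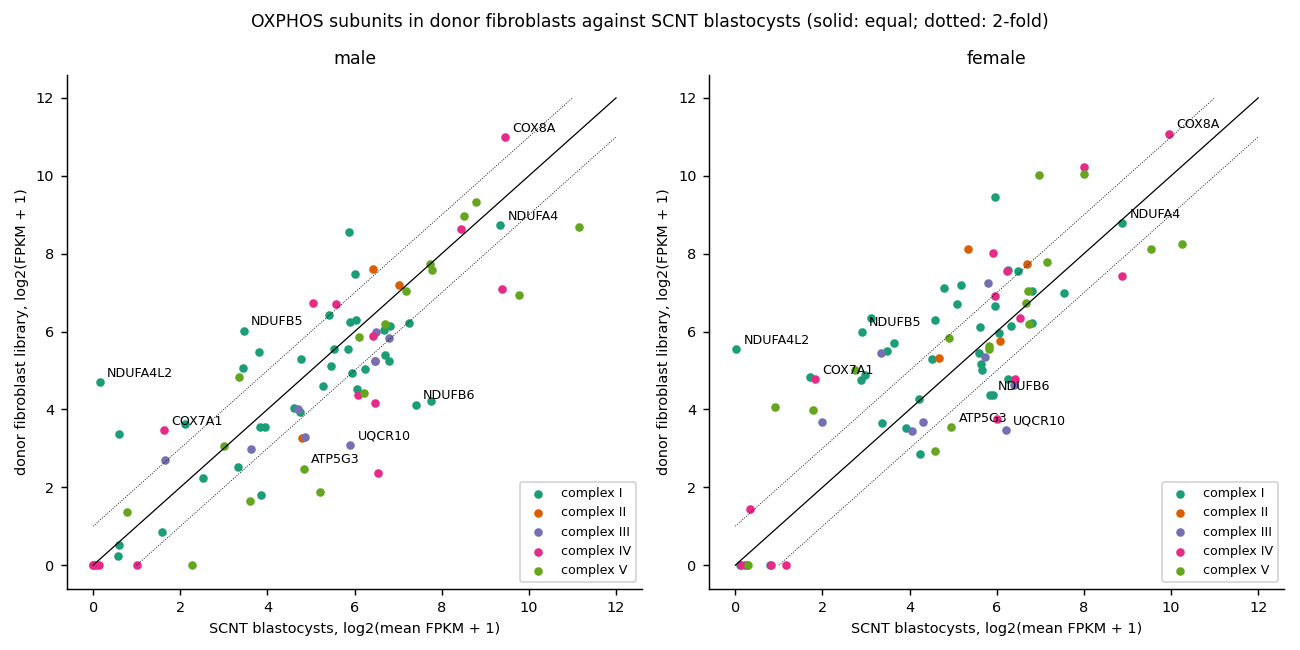
OXPHOS subunits in the donor fibroblast library against the mean of 6 SCNT blastocysts of the same sex, on log2(FPKM + 1) axes; each point is 1 gene, the solid line marks equal values and dotted lines a 2-fold difference. NDUFA4L2 and NDUFB5 lie above the lines in both sexes and UQCR10 and NDUFB6 below them.

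Genes that act beside the subunits were counted from lists of known genes. For comparison, 6.98% of all genes in males and 0.321% in females were called for SCNT-BLs against IVF-BLs. For sham NT-BLs against IVF-BLs the shares were 12.1% and 13.5%, and for SCNT-BLs against sham NT-BLs 11.8% and 11.3%. In the complex I assembly list (12 rows), 0 to 3 rows were called higher and 0 to 2 lower in any of the 6 comparisons. NDUFAF3, an early assembly factor, was lower in male SCNT-BLs (66.2 against 233 FPKM, -1.90, limma adjusted p = 0.000492) and in male sham NT-BLs (68.5 against 233 FPKM, -2.13, adjusted p = 0.00383). Of 23 assembly factors of complexes II to V, at most 2 were higher and 3 lower in a comparison. Among 15 genes of mitochondrial biogenesis at most 1 was called in each direction, and TFAM, which binds mitochondrial DNA, was called in none of the 6. The tricarboxylic acid cycle list of 16 genes had 3 higher and 3 lower in sham NT-BLs of each sex and 1 called in SCNT-BLs against IVF-BLs, DLD in males. Between SCNT-BLs and sham NT-BLs it had 5 higher and 4 lower in males and 2 of each in females. MDH2, the mitochondrial malate dehydrogenase, was lower in sham NT-BLs than in IVF-BLs of both sexes, by -1.52 and -0.75 on the log2 scale. ETFB, a carrier that feeds electrons to ubiquinone, was higher in sham NT-BLs of both sexes (2.12 and 2.03 on the log2 scale). CYCS and CYC1, cytochrome c and c1, were called in none of the 6 comparisons.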

How the data were processed

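Messenger RNA of single blastocysts was extracted with the Dynabeads mRNA DIRECT kit, amplified by pico-profiling and sequenced as paired ends. The authors aligned the trimmed reads to UMD3.1 with TopHat2 and estimated FPKM per gene with Cufflinks, without versions in the sources used here, and deposited 1 table of FPKM values with 37 libraries, all of which were used (0 columns belonged to no sample). FPKM are not counts, so depth, counting errors and read-based tests were not available, and relative depth was read from the commonest ratio of values under 1 FPKM to those of male IVF-BL 1. No gene coordinates or sequences of that build were at hand.

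Differences were fitted with limma 3.58.1 (R 4.3.3; lmFit, eBayes with a variance trend, two-sided) on log2(FPKM + 1) over all genes with a mean above 0.1 FPKM in the embryos compared, and called at a Benjamini-Hochberg adjusted p under 0.05. Groups of a sex were compared in pairs, and an interaction term tested whether effects differed between sexes. On simulated data with 200 genes changed 4-fold, the fit recovered 89.5% of them for male SCNT-BLs against IVF-BLs (15234 genes tested, 9 false calls) and 29.0% for the difference of sham effects between sexes (15854 genes, 1 false call). The changed genes were drawn only from genes well above the filter. Noise was normal, with each gene's spread over all embryos of the fit. The recovery therefore does not speak for low members or those listed at 0 in many embryos. Donor libraries were described past 2-fold only. Python 3.11.15 with pandas 2.3.3 handled the tables.

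Named in each comparison were all called members, or the 10 per direction with the largest difference, the 3 largest differences whether called or not, the most abundant member per complex, tissue isoform pairs, the 4 members per direction farthest from SCNT-BLs in the donors, and up to 3 called genes per related list and direction. Other members named, such as COX6C, NDUFAB1, TFAM, CYCS, CYC1 and, in the donors, NDUFB5, were chosen after their values were seen. The members and lists were chosen with earlier results of these data known. Alternatives were a pseudocount of 0.1, a filter at 1 FPKM or none, scaling to the same summed FPKM, centring, no variance trend, a replicate block, all 3 groups of a sex in 1 fit and leaving out each embryo. A fit with the 4 deeper female SCNT-BLs was added after seeing the data. 1 gene of the related lists is not reported here.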

Additional observations from a re-analysis of the deposited data

Results flagged for a closer look

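Single embryos stood apart from their group in 17 of 160 sets of values tested for an outlier with Dixon's criterion. Its nominal rate of 1 set in 20 holds for independent sets of normal values. FPKM were used here without a log scale, and complex sums share values with their members. The count therefore does not show an excess over chance. Female SCNT embryo 5, the shallowest library, was flagged 4 times: for the summed FPKM of complex I (3295 against 1411 to 2084 in the others), the summed FPKM of complex IV (4123 against 1092 to 2198), ATP5J (263 against 73.7 to 143 FPKM) and NDUFA3 (224 against 38.0 to 60.3 FPKM). Female sham embryo 5 was flagged for NDUFA4, where it was lowest at 1169.5 FPKM against 2227 to 2559.8, and was highest for COX5A at 75.6 FPKM and for NDUFB5 at 104 FPKM. Male sham embryo 5 was highest for COX5A at 105 FPKM, ATP5J2 at 15.1 FPKM and NDUFB9 at 363 FPKM. Male sham embryo 2 was highest for ATP5D at 44.1 FPKM. Male IVF embryo 6 was highest for NDUFA7 at 354 FPKM and NDUFC1 at 3.87 FPKM, and male SCNT embryo 1 was highest for NDUFC1 at 1.98 FPKM. Male SCNT embryo 5 was lowest for NDUFB6 at 123 FPKM, female IVF embryo 1 highest for ATP5H at 186 FPKM and female IVF embryo 5 lowest for NDUFS5 at 51.6 FPKM.

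Effects of an origin differed between the sexes for 6 genes by the limma interaction test, given as female minus male log2 difference. The SCNT effect differed for ATP5D at 2.80 and NDUFA7 at 1.40. The sham effect differed for NDUFA7 at 3.48, NDUFA3 at 2.29, ATP5H at 2.08, NDUFA8 at 1.98 and NDUFA4 at 1.47. Adjusted p-values and the values behind each are given with the comparisons above.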

How the results depend on the processing

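Of 93 named gene differences, 86 were called and 47 of these held under every alternative, while 23 lost the call without some embryo. No named difference changed sign, and none of the 7 that were not called passed under an alternative. Most losses outside the left-out embryos came with no filter on low values (28) and with the replicate block (22). Without a filter every row enters both the variance trend and the adjustment, and the part of each was not tested. Called members moved by over 1.5 times as follows: SCNT against IVF in males gave 9 with the 3 groups in 1 fit. With no filter, sham against IVF in males gave 17, SCNT against sham 12 in males and 7 in females, and the differences between sexes 1 for SCNT and 3 for sham effects. Leaving out each embryo gave ranges of 12 to 16 (SCNT against IVF, male), 0 to 0 (female), 23 to 30 (sham against IVF, male), 13 to 17 (female), 14 to 23 (SCNT against sham, male), 9 to 15 (female), 1 to 2 (difference of SCNT effects) and 3 to 7 (difference of sham effects), and 39 to 41 and 44 to 46 members past 2-fold in the male and female donors.

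Replicate numbers are shared between groups, but same-numbered embryos did not deviate together: 0 of 34 pairs correlated above 0.1 (-0.239 to 0.0759), and 4 of 68 embryos correlated best with their own number. With the replicate block, SCNT against sham in females gave 9 members and the differences between sexes 1 and 1 for SCNT and sham effects. The other counts of called members under the block stayed within 1.5 times.

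The log2 ratio of complex sums to IVF-BLs moved when the median member was used: complex I, sham, male -0.46 and female 0.58. It was 0.28 for complex II, sham, female. For complex III in males it was 0.21 for SCNT and 0.42 for sham. For complex IV it was 0.020 for SCNT, female, and -0.60 for sham, male. For complex V it was -0.45 and -0.26 for SCNT in males and females and -0.51 and -0.24 for sham. For all members it was -0.35 for SCNT, male, and -0.47 and 0.12 for sham in males and females. With libraries scaled to the same summed FPKM, the female sham ratios were 0.27 for complex II, -0.43 for complex IV, 0.0815 for complex V and 0.27 for all members. The cause of these moves was not tested. FPKM without counts hide the error of low genes, and the tests over 5 or 6 embryos miss small differences.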
